A study of Mus musculus with 12 samples.

Results

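The 10 genes described here were followed across mouse liver RNA-seq libraries: 4 of growth hormone reception and signal transfer (Ghr, Jak2, Stat5a, Stat5b), 2 feedback inhibitors (Socs2, Cish), and 4 of the insulin-like growth factor (IGF) output of the liver (Igf1, Igfals, Igfbp2, Igfbp3). They were chosen by gene symbol from the 25069 genes of the deposited table, and all 10 were present once and passed the filter on low values. Growth hormone from the pituitary binds its receptor on hepatocytes, which activates the kinase JAK2 and, through it, the transcription factors STAT5A and STAT5B. STAT5 then raises transcription of Igf1, of Igfals and of the feedback inhibitors, and the liver releases IGF-1 into the blood in a complex with a binding protein and the acid-labile subunit. In rodents growth hormone is secreted in pulses whose spacing differs between the sexes, and direct STAT5 targets in liver follow these pulses.

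All 12 mice were female and were themselves wild type at Khdc3, a maternal-effect gene of the oocyte. The groups differed in ancestry. Mice labelled WT had wild-type ancestors only, those labelled WTMM had 2 Khdc3-null grandmothers, and those labelled WTPP had 2 Khdc3-null grandfathers, in each case through the mother and through the father. Each group had 4 libraries, numbered 116, 117, 118 and 120 in WT, 6, 7, 8 and 9 in WTMM, and 2, 3, 6 and 7 in WTPP; values listed for a group follow this order. No treatment and no age was given in the labels. The labels name the tissue as liver and the cell type as hepatocyte, with no sorting step, and 10 marker lists of liver and other cells were all detected. The 7 hepatocyte markers summed to between 2675740 and 4261670 normalized counts per library and the 12 Kupffer cell markers to between 14000 and 46749, so RNA of cells other than hepatocytes was present. In such bulk RNA, fewer cells of a type and less RNA per cell cannot be told apart. Nothing says how mice, litters or culls were shared between libraries, so p-values measure the spread between these libraries.

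Libraries held 25070718 to 35843972 reads assigned to genes, and the member with the fewest reads in any library, Cish, still had 139 there. Libraries WTPP 2 and WTPP 3 stood apart from the others in genes of the circadian clock, a comparison added after the values were seen. Arntl (Bmal1), an activator of the clock loop, had 933 and 541 normalized counts in WTPP 2 and WTPP 3, against 38.8 and 31.97 in WTPP 6 and WTPP 7, 102 to 175 in WT and 52.2 to 119 in WTMM. Dbp, a clock-driven transcription factor, had 140.3 and 1316 in WTPP 2 and WTPP 3, against 4930.4 and 6545 in WTPP 6 and WTPP 7, 2074 to 3400.2 in WT and 3667 to 4649 in WTMM. Per1, another clock gene, had 313 to 379 in WT and 319 in WTPP 2, against 1057 to 1581 in WTMM. In WTPP 3, WTPP 6 and WTPP 7 it had 893, 1200 and 1662. Per2 overlapped, at 644 to 942 in WT and 735 to 1084 in WTMM. Clock genes thus also differed in part between WT and WTMM, which leaving out WTPP 2 and WTPP 3 does not remove. Times of tissue collection were not given in the labels. Each member result below that rests on WTPP 2 and WTPP 3 is given with and without them.

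Set per length, Igfbp2, Igf1, Ghr and Igfals formed the upper part of the axis, and the signalling genes, the feedback inhibitors and Igfbp3 the lower part. In normalized counts per kilobase of annotated exon (mean ± SD over 12 libraries), Igfbp2 stood at 4158 ± 1336, Igf1 at 3197 ± 661, Ghr at 1904 ± 269 and Igfals at 1837 ± 316. The next level was far lower: Stat5b at 363 ± 97.8, followed by Igfbp3 at 297 ± 54.4, Cish at 152 ± 96.3, Jak2 at 122 ± 7.91, Socs2 at 115 ± 81.2 and Stat5a at 63.5 ± 23.5. Of the 9 pairs of neighbours in this order, 8 overlapped in their ranges over libraries; the step that did not was between Igfals, lowest at 1382, and Stat5b, highest at 579. In rat liver Igfbp3 is made mainly by cells other than hepatocytes. The length is that of all annotated exons, so a gene with a long, little-used exon is placed too low.

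**Figure D1:**
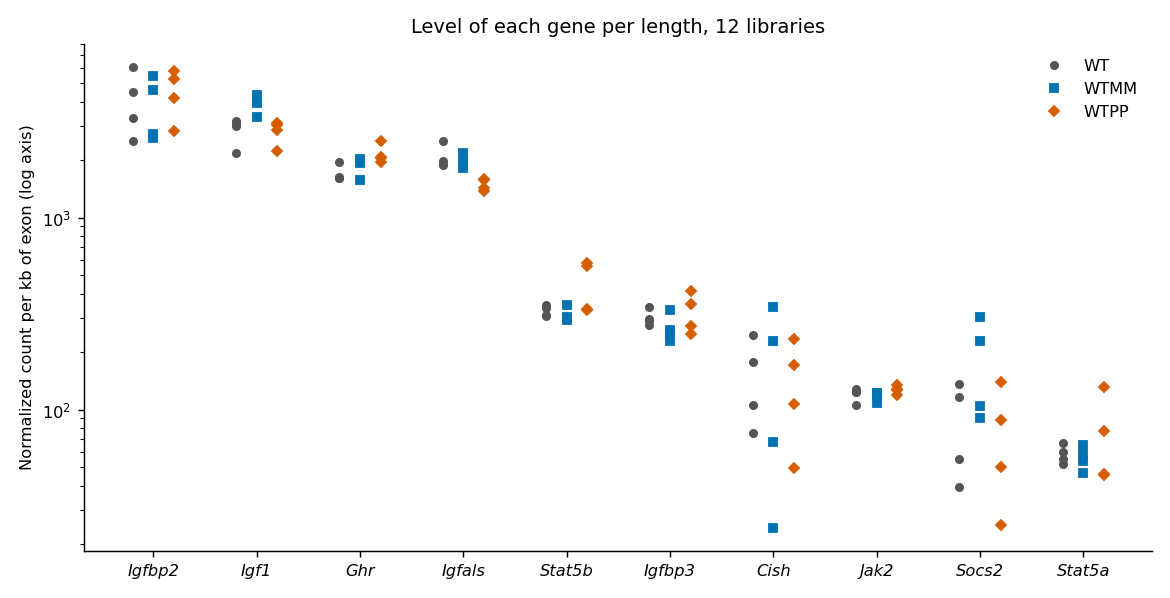
Level of each of the 10 genes in normalized counts per kilobase of annotated exon (log axis), one point per library, in WT (circles), WTMM (squares) and WTPP (diamonds). Igfbp2, Igf1, Ghr and Igfals lie above the other 6 genes in every library, and Cish and Socs2 spread most.

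Spread within groups differed greatly among members. The pooled SD of log2 values within groups was 1.22 for Cish and 0.93 for Socs2, larger than in 99.3% and 98.3% of the 14473 genes tested, against a median of 0.21 over those genes. Igfbp2 (0.52) and Stat5a (0.44) were also in the wide part. Jak2, at 0.09, was steadier than most genes, with 6.05% of genes below it, and Igfals (0.14) and Ghr (0.15) were below the median. A difference of a given size is therefore far easier to detect for Igfals, Ghr or Jak2 than for Cish or Socs2 with 4 libraries a group.

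**Figure D2:**
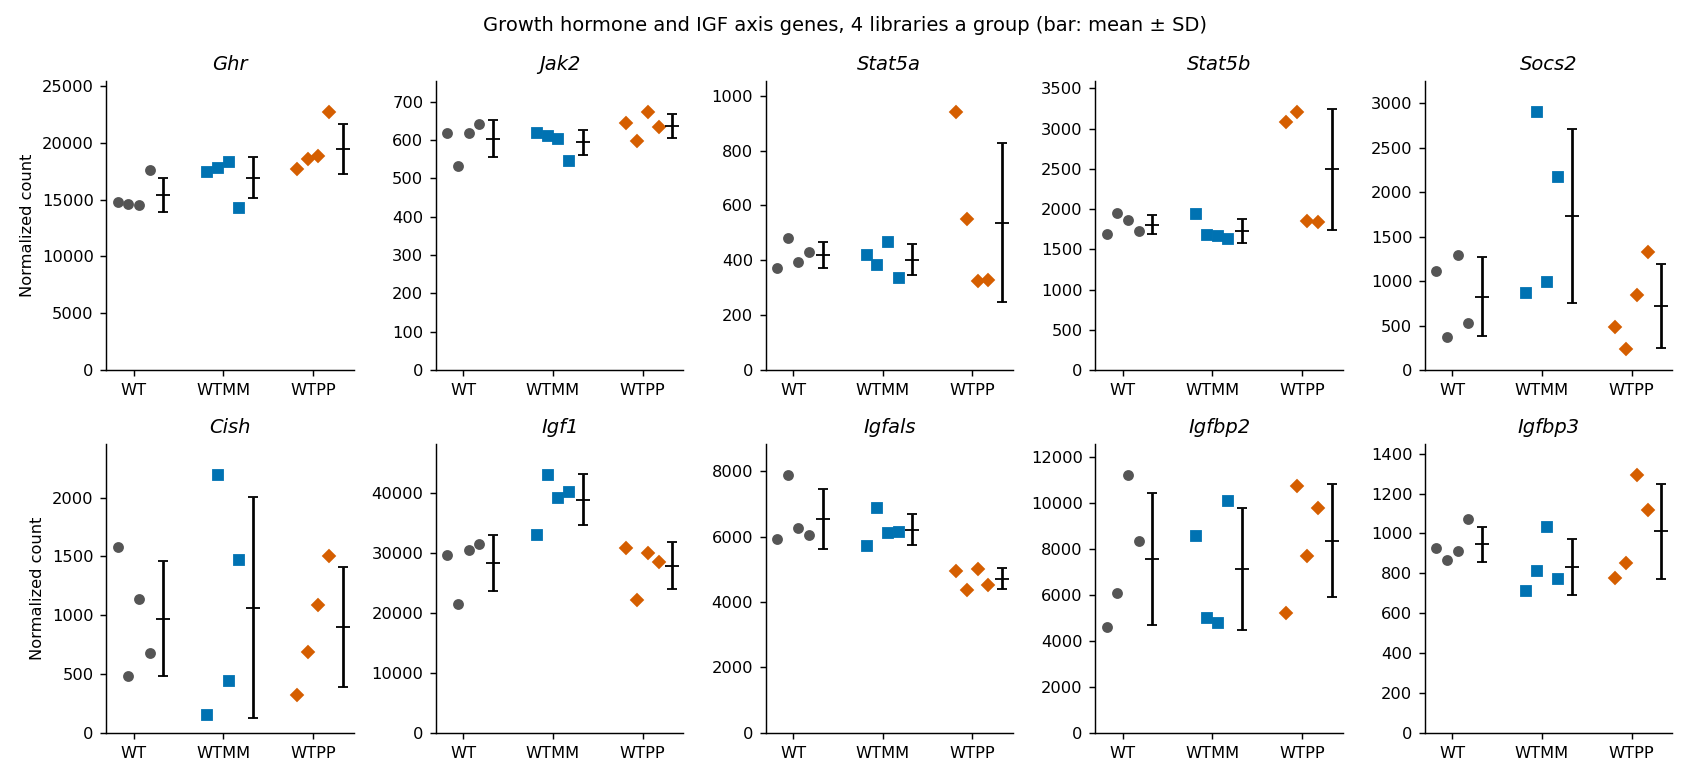
Normalized counts of the 10 genes (linear axes from 0), one point per library and, beside the points, the mean ± SD of the 4 libraries. Igfals lies lower in every WTPP library than in any other library, and Igf1 lies higher in every WTMM library than in any other library.

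The 3 comparisons were made in a single limma fit of log2(normalized count + 1): each lineage against WT, and the lineages against each other. WTMM and WTPP share the WT libraries, so their comparisons with WT are not independent. Against WT, 0 of the 10 members were called in WTMM at an adjusted p under 0.05, where 10.4% of all tested genes were called (4.44% higher and 5.94% lower); 1 member had an unadjusted p under 0.05, and the voom fit of the recovered reads also called 0. In WTPP against WT 1 of 10, Igfals, fell, beside 10.2% of all genes called (4.68% higher and 5.53% lower). Between the lineages 1 of 10, again Igfals, was higher in WTMM, beside 4.17% of all genes (2.29% higher and 1.88% lower). These member counts are near the background. The same shares apply to the counts of called genes in the lists below, some of which are also near them. Groups did not overlap for 1 member in WTMM against WT, for 2 in WTPP against WT and for 2 between the lineages, where the same holds for 18.8%, 15.1% and 13.2% of all genes. The median log2 fold change over the 10 members was -0.07, 0.08 and -0.19, and over all tested genes 0.00035, -0.0076 and -0.00037.

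**Figure D3:**
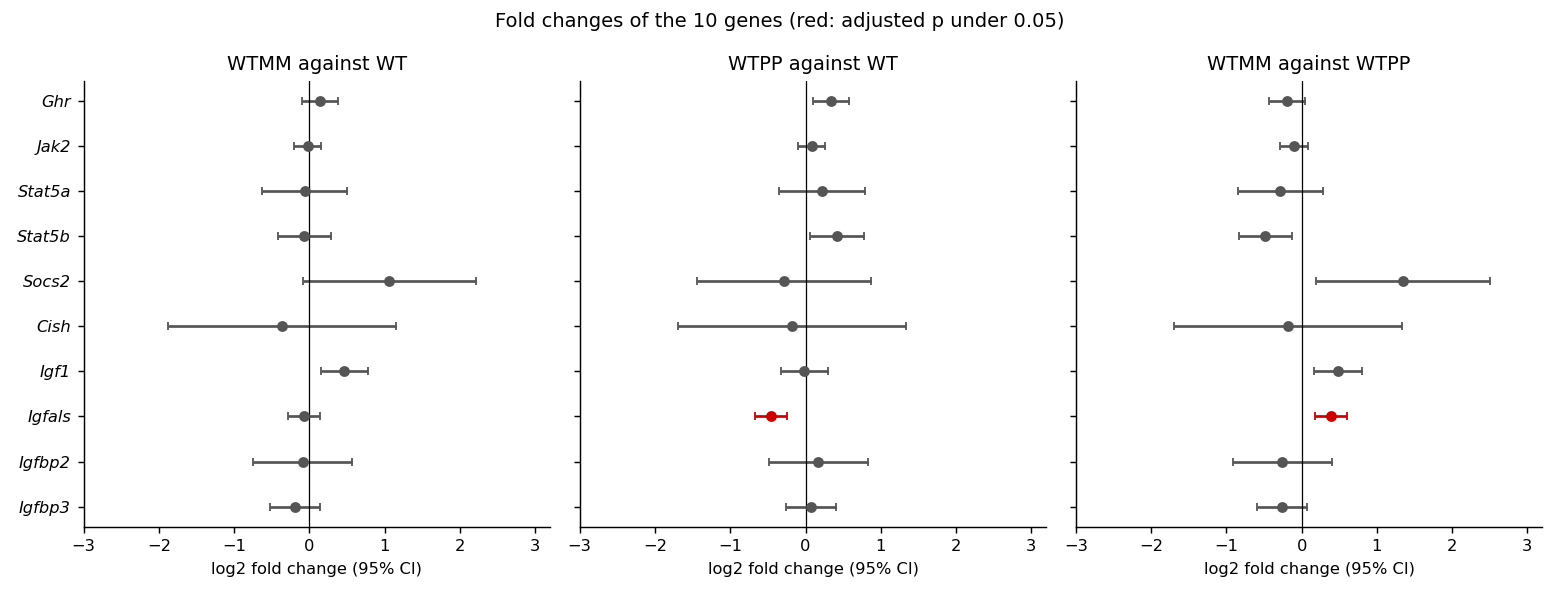
Log2 fold change of each gene with its 95% confidence interval in the 3 comparisons, from the fit across all genes. Red marks an adjusted p under 0.05, which Igfals reached in WTPP against WT and in WTMM against WTPP; the intervals of Socs2 and Cish are the widest.

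Igfals encodes the acid-labile subunit, the liver protein that holds IGF-1 and its binding protein in a long-lived complex in blood. It lies on chromosome 17, 24865997 to 24882010, on the plus strand (GRCm38). The WT libraries had 5929.8, 7889, 6264 and 6048 normalized counts, the WTMM libraries 5719, 6859, 6098 and 6143, and the WTPP libraries 4954, 4377, 5005 and 4517. All 4 WTPP libraries were below all 8 others, while WT and WTMM overlapped. From 6533 ± 915 in WT (SD, n = 4) it was 1.38-fold lower in WTPP, at 4713 ± 313 (log2 fold change -0.46 ± 0.10 SE, adjusted p = 0.0119). The fall was called under all 24 alternatives, with adjusted p between 0.0046 and 0.0394. Without both WTPP 2 and WTPP 3 it was -0.45 on the log2 scale, adjusted p = 0.0394, so the call did not need these libraries. WTPP 6 and WTPP 7 also lay outside the WT range in Arntl and Dbp, on the other side, so this fit cannot set the clock genes aside. Their part in the Igfals result was not tested.

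Igfals was 1.32-fold higher in WTMM, at 6205 ± 476, than in WTPP (log2 fold change 0.40 ± 0.10, adjusted p = 0.0401). This call was close to the threshold and was lost in 12 of the 24 alternatives, fits of 4 libraries left aside. Among single libraries it was lost without WT 118 (adjusted p = 0.0588), WTMM 6 (0.0579), WTMM 7 (0.113), WTMM 8 (0.0787), WTMM 9 (0.102), WTPP 2 (0.0577), WTPP 3 (0.112), WTPP 6 (0.0573) or WTPP 7 (0.0885), and it was 0.132 without both WTPP 2 and WTPP 3. The log2 difference itself stayed between 0.35 and 0.43. Between WTMM and WT the Igfals difference was -0.07 on the log2 scale with a 95% interval from -0.28 to 0.15.

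Against WT, markers of other cells moved in both lineages. Of 12 Kupffer cell markers, 12 fell in WTPP and 11 in WTMM against WT; their sum ranged from 21493 to 46749 in WT, from 14000 to 18469 in WTMM and from 14702 to 19063 in WTPP, Kupffer cells being the resident macrophages of the liver. Of 7 hepatocyte markers, 2 fell in WTPP and 2 in WTMM. Their sum ranged from 2973650 to 4261670 in WT, from 2675740 to 3094750 in WTMM and from 3248410 to 3655490 in WTPP. Markers of T and NK cells (5 of 12), B cells (3 of 7), sinusoidal endothelium (1 of 12) and pancreatic acinar cells (6 of 8) also fell in WTPP, and 1 of the 4 cholangiocyte markers that passed the filter rose. In WTMM those of T and NK cells (9 of 12), B cells (4 of 7), sinusoidal endothelium (1 of 12) and pancreatic acinar cells (6 of 8) fell, and 1 of the 4 cholangiocyte markers fell. The acinar marker Ctrb1 had 11.1 to 353 normalized counts in the WT libraries, 2.24 in WTMM 6, and 0 in every other lineage library. Clps had 17.7 to 124 in WT and 0 in WTMM and WTPP. The acinar sum ranged from 1199 to 3146 in WT, 1327 to 1736 in WTMM and 482 to 1250.5 in WTPP. Most of this sum was Cela1, at 1120 to 1678 in WT, 1301 to 1715 in WTMM and 446 to 1237 in WTPP, so it does not show the loss of Ctrb1 and Clps. Sums of T and NK cell markers ranged from 447 to 1011 in WT, 222 to 256 in WTMM and 265 to 324 in WTPP. Those of B cell markers ranged from 563 to 1249 in WT, 245 to 376 in WTMM and 327 to 581 in WTPP. No marker of stellate cells, neutrophils or erythroid cells was called in WTPP. In WTMM 2 of 11 stellate cell markers fell, and of those that passed the filter 4 of 5 neutrophil and 1 of 5 erythroid markers fell. Of all tested genes 5.53% fell in WTPP and 5.94% in WTMM, and 1 of 12 sinusoidal endothelial markers is near that share. No marker of the 10 lists was at 0 in all 12 libraries. The part of these shifts in the Igfals result was not tested.

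The promoter of Igfals is shown because STAT5 is known to drive this gene and because it was the member that passed the test. STAT5 dimers bind sites of the form TTCNNNGAA, whose outer TTC and GAA read the same on both strands. Windows of 250 bases before and 50 after each RefSeq start (GRCm38.p6) were searched; 9 of the 10 members had an entry, with 15 windows in all, and Socs2 had none. In the 250 bases before the start, 2 of the 15 member windows held the motif, both of Igfals, against 7.02% of all 32851 windows. The following stretch before an Igfals start, chr17:24877981-24878214, plus strand, lies outside annotated exons, and capitals mark the match, whose first base is at -58 from that start.
Igfals: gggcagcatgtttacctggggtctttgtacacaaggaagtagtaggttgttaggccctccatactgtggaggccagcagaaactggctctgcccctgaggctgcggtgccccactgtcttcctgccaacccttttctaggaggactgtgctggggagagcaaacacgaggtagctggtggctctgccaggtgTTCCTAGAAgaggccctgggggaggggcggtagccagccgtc
The other match, at -236 from a start farther upstream, is shown with its neighbours from chr17:24877600-24877625, plus strand, with the match in capitals.
Igfals, upstream match: tctataatTTCTCAGAAaagaggctg
The remaining Igfals window and those of Igf1, Ghr, Jak2, Stat5a, Stat5b, Igfbp2 and Igfbp3 held no match, which says only that these letters are not in these windows. No binding was measured here.

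Igf1, the growth-promoting hormone itself (chromosome 10, 87858265 to 87937042, plus strand), was the member with the most reads. The WT libraries had 29704, 21513, 30503 and 31507 normalized counts, the WTMM libraries 32956, 43022, 39098 and 40213, and the WTPP libraries 30891, 22125, 30059.9 and 28410.1. All 4 WTMM libraries were above all 8 others, and WT and WTPP overlapped throughout. The mean was 38822 ± 4245 in WTMM, against 28307 ± 4589 in WT and 27871 ± 3967 in WTPP. The WTMM value was 1.38 times that of WT (log2 difference 0.46 ± 0.15 SE, 95% interval 0.15 to 0.78), with an adjusted p of 0.0576 that misses the threshold.

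The Igf1 result sat at the edge of the threshold in either direction. Against WT, adjusted p ranged from 0.0422 to 0.143 over 24 alternatives, and the difference was called in 3 of them: with array weights (0.0422), without WTPP 3 (0.0458), and without both WTPP 2 and WTPP 3 (0.0470). Against WTPP the log2 difference was 0.48 ± 0.15 with adjusted p = 0.0855, and it was called with array weights (0.0274) and without WT 117 (0.0319). Library WT 117 was the lowest of its group, at 21513 against 29704 to 31507 in the other 3; without it the difference between WTMM and WT was 0.34 on the log2 scale, adjusted p = 0.0999. The WTPP against WT difference was -0.02, with a 95% interval from -0.33 to 0.30. The part of the clock genes, which in part also differed between WT and WTMM, in the Igf1 values was not tested. Set beside Igfals, the ratio of Igf1 to Igfals normalized counts was 2.73 to 5.21 in WT, 5.76 to 6.55 in WTMM and 5.05 to 6.29 in WTPP, with WT 117 lowest at 2.73 as the library with the lowest Igf1 and the highest Igfals. An antisense gene, Igf1os, overlaps the Igf1 locus but no Igf1 exon, and had 93 reads in all 12 libraries.

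Ghr, the growth hormone receptor (chromosome 15, 3317760 to 3583492, minus strand), had values of 14767, 14592, 14496 and 17617 in WT, 17397, 17732, 18288 and 14252 in WTMM, and normalized counts of 17701, 18542, 18805 and 22691 in WTPP. All WTPP libraries were above all WT libraries, although WT 120 lay close to the lowest of them, and WTMM overlapped both. The mean was 15368 ± 1503 in WT, 16917 ± 1814 in WTMM and 19435 ± 2221 in WTPP. The WTPP against WT difference was 0.34 ± 0.11 on the log2 scale, 1.26-fold, with an adjusted p of 0.0703 that misses the threshold. It passed without WT 120 (0.0469) and in none of the other 23 alternatives. The member that binds the hormone thus had its highest group mean in the group where Igfals was lowest, with the first difference not called and the second called.

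Jak2, the kinase bound to the receptor (chromosome 19, 29251828 to 29313080, plus strand), varied little. Normalized counts ran from 533 to 641 in WT libraries, from 544 to 617 in WTMM and from 597 to 673 in WTPP, and the groups overlapped. The 95% interval of the log2 difference was -0.20 to 0.16 for WTMM against WT and -0.10 to 0.26 for WTPP against WT.

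Stat5b and Stat5a are neighbours on chromosome 11 (100780731 to 100850724, minus strand, and 100859351 to 100885169, plus strand) and encode closely related transcription factors, so short reads may be split between them with some uncertainty. Stat5b is the form that carries most of the growth hormone signal in mouse liver. Its WT libraries had 1698, 1949, 1863 and 1726 normalized counts, with 1942, 1679, 1667 and 1624 in WTMM, and 3086, 3207, 1848 and 1839.8 in WTPP. Stat5a had 372, 481, 395 and 429.8 in WT, 419.9, 385, 469 and 335 in WTMM, and 941, 551, 326 and 329.8 in WTPP. In both genes WTPP 2 and WTPP 3 were above the other 10 libraries, and WTPP 6 and WTPP 7 lay within or just below the range of WT.

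The group mean of Stat5b in WTPP, 2495 ± 754 against 1809 ± 118 in WT, therefore comes from libraries WTPP 2 and WTPP 3. The log2 difference was 0.42 ± 0.17 (adjusted p = 0.128) with all libraries and 0.03 (adjusted p = 0.885) without WTPP 2 and WTPP 3. For Stat5a it was 0.22 ± 0.26 (adjusted p = 0.645) and turned to -0.35 (adjusted p = 0.144) without them, and it was also below 0 without WTPP 2 alone, at -0.10. Between the lineages the Stat5b difference was -0.48 ± 0.17 (adjusted p = 0.129), and -0.10 without WTPP 2 and WTPP 3. WTPP 2 and WTPP 3 are the libraries in which Arntl was high and Dbp low, as given above, and the part of the clock shift in the Stat5 values was not tested. The ratio of Stat5b to Stat5a normalized counts was 3.28 in WTPP 2, the lowest of all 12, and 5.82 in WTPP 3, the highest, so the pair did not move by the same factor. Stat5a overlaps an exon of Stat3 on the opposite strand by 72 bases. The library kit keeps strand, but whether counting used it is not given in the sources used here.

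**Figure D4:**
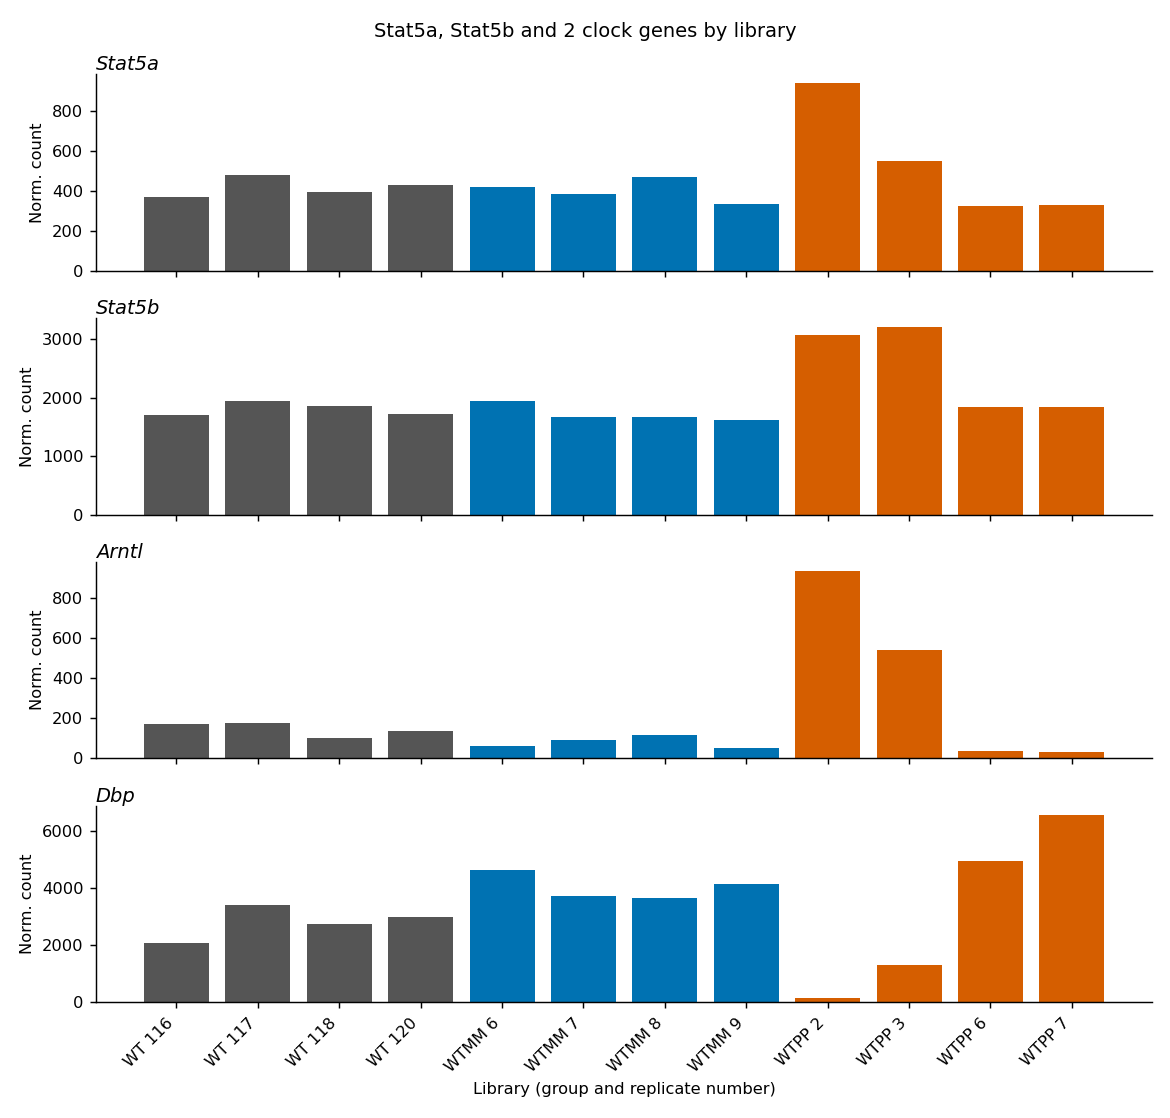
Normalized counts by library of Stat5a, Stat5b and 2 clock genes, Arntl and Dbp (bars from 0, coloured by group). WTPP 2 and WTPP 3 have the highest Stat5a, Stat5b and Arntl and the lowest Dbp of the 12 libraries.

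Socs2 encodes the suppressor of cytokine signalling that limits growth hormone action, and it is itself induced through STAT5 (chromosome 10, 95385362 to 95417180, minus strand). Its WT libraries had 1115, 376, 1295 and 525 normalized counts, with 866, 2900.5, 995 and 2172 in WTMM, and 481, 238, 844 and 1327 in WTPP. WTMM 7 and WTMM 9 were above all other libraries, and the groups overlapped. The mean in WTMM, 1733 ± 975, was 2.09 times that of WT on the log2 scale of the fit, against a WT mean of 828 ± 446, but with a log2 difference of 1.06 ± 0.54 and an adjusted p of 0.218 it was within the spread between libraries. Between the lineages the difference was 1.35 ± 0.54 (adjusted p = 0.190), and 0.53 (adjusted p = 0.679) without WTPP 2 and WTPP 3. WTPP was at -0.29 against WT with all libraries and at 0.53 without WTPP 2 and WTPP 3, with neither called. The part of the clock genes in the Socs2 values was not tested.

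Cish, another STAT5-induced inhibitor of cytokine receptors (chromosome 9, 107296026 to 107302784, plus strand), spread most of all members. Its WT libraries had 1579, 487, 1140.2 and 681 normalized counts, with 156, 2194, 438 and 1468 in WTMM, and 319.7, 690.3, 1091 and 1502 in WTPP. The highest and the lowest library of the 12 both belonged to WTMM, 14.1-fold apart, and within WT and WTPP the highest was 3.24 and 4.70 times the lowest. No contrast was near the threshold, with adjusted p from 0.782 to 0.928, and the 95% interval of WTMM against WT, -1.87 to 1.15 on the log2 scale, leaves room for a large difference in either direction. A pseudogene on the opposite strand, Gm17040, shares 261 exon bases with Cish and had 53 reads in all libraries.

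The Cish promoter is known for its STAT5 elements, and its window held 2 matches to TTCNNNGAA, starting at bases 1 and 12 after the RefSeq start, inside an annotated Cish exon. Counting the 50 bases after the start as well, 3 of the 15 member windows and 8.30% of all windows held a match. Capitals mark the matches in chr9:107296654-107296683, plus strand.
Cish: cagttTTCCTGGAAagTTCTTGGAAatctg

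Socs2 and Cish moved together from library to library. With group means removed, Pearson's r of their log2 values was 0.78 and Spearman's rho 0.76 over 12 libraries, and r was 0.88 without the 2 libraries farthest from the median of Socs2. Without WTPP 2 and WTPP 3, r was 0.88 and rho 0.94 over 10 libraries. Over the 12 libraries r of Igfals was -0.01 with Socs2 and 0.05 with Cish, and that of Igf1 was 0.70 and 0.47. Stat5b ran against both, with r = -0.69 and -0.57. These values describe 12 livers that share 3 group means and one normalization, and no p is given. Both were higher in WTMM 7 and WTMM 9 than in WTMM 6 and WTMM 8, and both were higher in WT 116 and WT 118 than in WT 117 and WT 120. In WTPP both were higher in libraries 6 and 7 than in 2 and 3.

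Other genes known to be under STAT5 control in rodent liver followed this order in part; they were chosen after their values were seen. Onecut1 (HNF6), a growth hormone-induced transcription factor, ran at 347, 355, 564 and 539 normalized counts over the WT libraries, 174, 1332, 281 and 1090.2 in WTMM, and 167, 257, 939 and 1439 in WTPP, so that it was high where Socs2 and Cish were high in WTMM and WTPP, but not in WT, where 116 was lowest. Onecut1 also ran against the clock gene Arntl, with r = -0.72 and rho = -0.70 over 12 libraries after removal of group means, and the part of the clock shift in its values was not tested. Bcl6, a repressor that is itself lowered by STAT5, had 2293 in WTMM 6, the library with the least Cish of all 12, against 103 to 347 in the other WTMM libraries, 99.9 to 145 in WT and 149 to 246 in WTPP. Socs2 was not unusually low in WTMM 6, at 866. With group means removed, Bcl6 had r = -0.61 and rho = -0.43 with Cish. With Socs2 it had r = -0.24 and rho = 0.02, so Bcl6 mirrored the pair in 1 library rather than throughout.

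**Figure D5:**
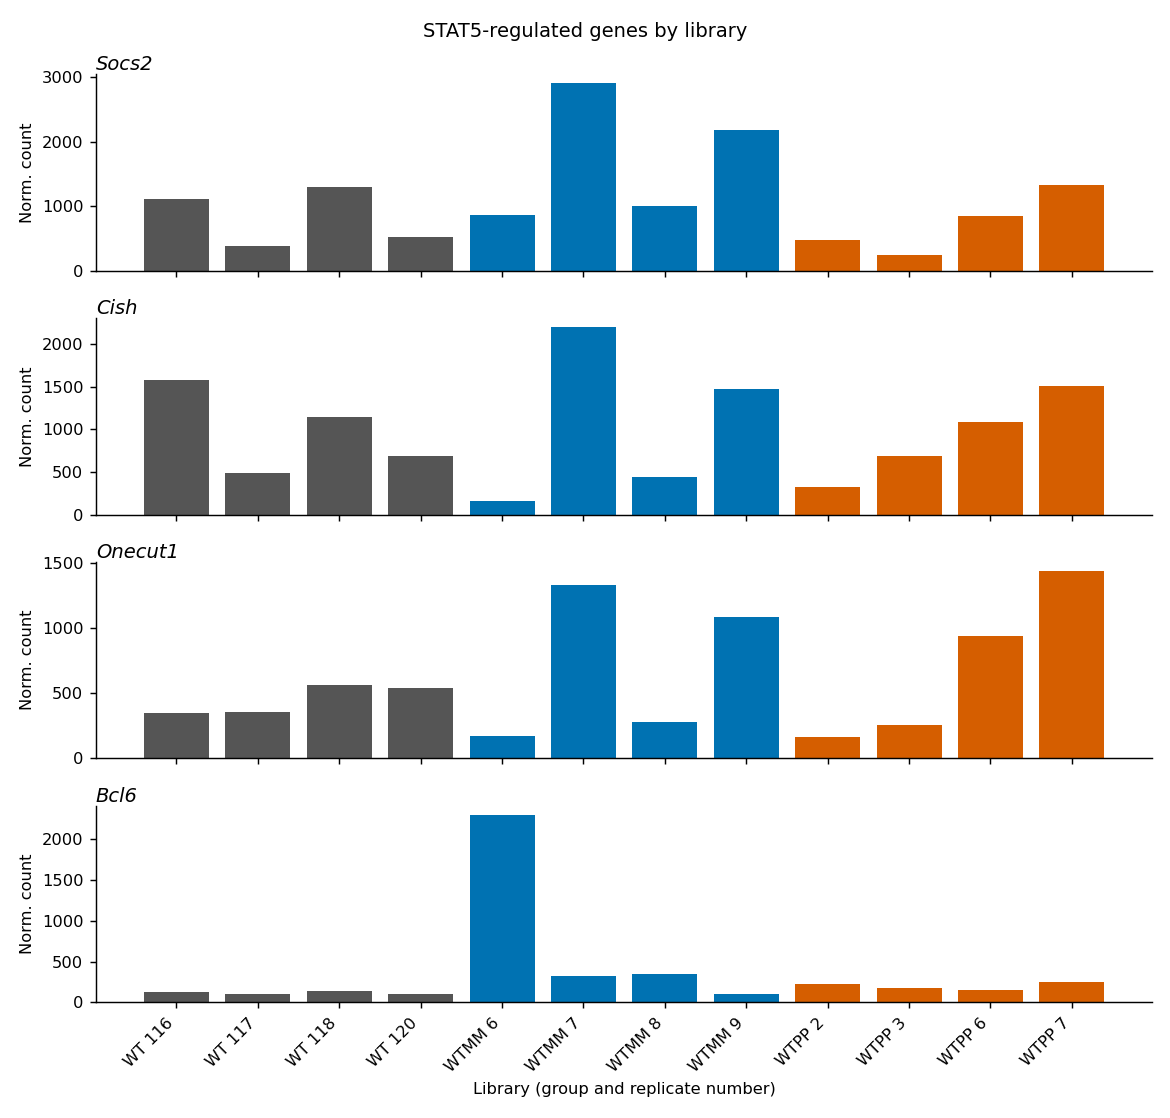
Normalized counts by library of Socs2, Cish, Onecut1 and Bcl6 (bars from 0, coloured by group). WTMM 7 and WTMM 9 are the highest WTMM libraries for Socs2, Cish and Onecut1, and WTMM 6 has the highest Bcl6 and the lowest Cish.

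The binding proteins were not called in any contrast. Igfbp2, a binding protein that growth hormone and insulin lower in liver (chromosome 1, 72824503 to 72852474, plus strand), ran at 4611, 6081, 11224 and 8338 normalized counts over the WT libraries, 8571, 5005, 4774 and 10102.5 in WTMM, and 5228, 10742, 7710.3 and 9769.97 in WTPP. The groups overlapped widely, with means of 7563 ± 2882, 7113 ± 2645 and 8362 ± 2442. The 95% interval was -0.74 to 0.57 on the log2 scale for WTMM against WT and -0.49 to 0.83 for WTPP against WT.

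Igfbp3, the main IGF carrier of adult serum (chromosome 11, 7206086 to 7213923, minus strand), ran at 927, 868, 910.5 and 1074 normalized counts over the WT libraries, 713, 811, 1030.3 and 769.8 in WTMM, and 778, 853, 1295 and 1116 in WTPP. All groups overlapped, and adjusted p ran from 0.397 to 0.811. Within WTPP, libraries 6 and 7 were higher than 2 and 3; without WTPP 2 and WTPP 3 the difference between the lineages was -0.55 on the log2 scale, adjusted p = 0.0609. The summed sinusoidal endothelial markers ranged from 18960 to 21938 in WT, 16897 to 18740 in WTMM and 17943 to 18601 in WTPP; their part in the Igfbp3 values was not tested.

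The genes most like Igf1 over the 12 libraries, by Pearson's r of log2 values among genes with a mean of at least 100 normalized counts, were Ube2w (0.92), Etf1 (0.91) and Slc16a12 (0.90). For Ghr they were Epm2a (0.92), Adhfe1 (0.90) and Sucnr1 (0.90), and for Igfals Akt1 (0.92), Rnf185 (0.91) and Abca3 (0.91). None of these genes is a member. With 9884 genes compared over 12 libraries, values of this size describe the libraries only.

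Among 20 other genes of growth hormone receptor signalling, 1 rose and 5 fell in WTMM, 1 rose and 4 fell in WTPP, and 0 were higher and 2 lower in WTMM than in WTPP. Of all tested genes 4.44% rose and 5.94% fell in WTMM, and 4.68% rose and 5.53% fell in WTPP. Between the lineages 2.29% were higher and 1.88% lower in WTMM. The 1 rise in 20 is near the share of all genes. The median log2 fold change was -0.15, -0.16 and -0.01. Grb14, an adaptor that dampens receptor signalling, rose 1.32-fold in WTMM (adjusted p = 0.0293) and 1.33-fold in WTPP (0.0272). Ptpn6 (SHP-1), a phosphatase abundant in blood cells, fell 1.44-fold in WTMM (0.00406), Ptpn1, a phosphatase of JAK2, fell 1.48-fold in WTPP (0.00596), and both calls held in all 24 alternatives. Ptpn1 also fell in WTMM, 1.28-fold (0.0436). Sirpa, a receptor of macrophages, fell 1.55-fold in WTMM (0.0234) and 1.53-fold in WTPP (0.0271), beside the lower Kupffer cell markers given above. Tyk2 (1.28-fold, 0.0283) and Ptpn6 (1.27-fold, 0.0464) were lower in WTMM than in WTPP. The calls of Grb14 were lost without WT 118, WTMM 7 or WTMM 9 in WTMM and without WT 118, WTPP 2 or WTPP 6 in WTPP. They were also lost without the mean-variance trend in WTMM, and with a fit of the 2 groups compared in WTPP. The calls of Sirpa were lost without WT 116, WT 118 or WT 120 in both, and also without WTMM 6, WTMM 7 or WTMM 9, and WTPP 2 or WTPP 3. In WTPP the Sirpa call was also lost without the trend and with the fit of the 2 groups. The call of Tyk2 was lost without any 1 of the WTMM libraries or without WTPP 3, WTPP 6 or WTPP 7. That of Ptpn6 between the lineages was lost without WT 118, WT 120 or any 1 library of either lineage. It was also lost without the trend, with equal library totals, with voom and with no filter beyond 1 read in any library.

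Of 14 other genes of the IGF system, 9 passed the filter, and 1, Igfbp1, rose in both lineages. Igfbp1, a binding protein that insulin represses and fasting induces, ran at 96.6, 149, 129 and 64.7 normalized counts over the WT libraries, 544, 1151, 1324 and 103 in WTMM, and 2334, 1389, 1147 and 2223 in WTPP. All WTPP libraries were above all WT libraries, whereas WTMM 9 lay within the WT range. The log2 difference was 4.004 ± 0.61 in WTPP (adjusted p = 0.00231) and 2.36 ± 0.61 in WTMM (0.0267). The latter call was lost when any 1 of WT 116, WT 118 and WT 120, or of WTMM 6, WTMM 7 and WTMM 8, was left out. It was also lost without the mean-variance trend, with robust eBayes and with voom, and its adjusted p reached 0.0805 over the alternatives. Between the lineages no gene of the list was called, and the smallest p was that of Igfbp5, lower in WTMM at -0.99 ± 0.36 (adjusted p = 0.149). The IGF-1 receptor Igf1r was low throughout, at 36.1 to 77.3 normalized counts, and Igf2 did not pass the filter, with 2.65 to 16.8.

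Genes of mouse liver that follow the sex-specific pattern of growth hormone pulses were read beside the axis. Of 11 genes higher in male mouse liver, 6 rose and 1 fell in WTMM, 2 rose and 1 fell in WTPP, and 4 were higher in WTMM than in WTPP, with median log2 fold changes of 0.82, 0.02 and 0.69. Of all tested genes 4.44% rose and 5.94% fell in WTMM, and 4.68% rose and 5.53% fell in WTPP. In WTPP the rise of Mup3 (adjusted p = 0.0497) was lost in 18 of 24 alternatives and the fall of Hsd3b5 (0.0397) in 12. Hsd3b5 was 16.8-fold higher in WTMM than in WTPP (adjusted p = 0.000329), Cyp7b1 was 3.21-fold higher (0.00282), and both held in all 24 alternatives. Of 11 genes higher in female liver, 2 rose and 1 fell in WTMM, 1 rose and 1 fell in WTPP, and 1 was higher and 2 lower in WTMM than in WTPP, with medians of 0.09, 0.26 and 0.14. Cyp17a1 was 20.3-fold lower in WTMM than in WTPP (2.04e-05) and Sult2a1 4.64-fold lower (0.00735), whereas Cux2 was 2.86-fold higher (0.0212, lost without WTMM 6). The members upstream of these genes, Ghr, Jak2, Stat5a and Stat5b, were not called between the lineages. Their log2 differences, WTMM minus WTPP, were -0.20 ± 0.11 (SE), -0.10 ± 0.08, -0.28 ± 0.26 and -0.48 ± 0.17. Without WTPP 2 and WTPP 3 those of Stat5a and Stat5b were 0.28 and -0.10. A missing call does not show equal levels, and STAT5 activity was not measured. The part of growth hormone signalling in the values of these genes was not tested.

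Feeding state and inflammation both act on hepatic growth hormone signalling, and lists of each were read beside the members. Of 10 fasting-responsive genes, 6 rose in WTMM, 3 rose in WTPP and 1 was higher in WTMM than in WTPP, none fell, and the medians were 0.86, 0.44 and 0.23. The shares of all tested genes were 4.44% higher and 5.94% lower in WTMM, and 4.68% higher and 5.53% lower in WTPP. Pck1 rose 2.16-fold (adjusted p = 0.000729) and Angptl4 2.30-fold (0.00406) in WTMM, both in all 24 alternatives. In WTPP the rise of Pck1 (0.0498) was lost in 18 of 24 alternatives and that of G6pc (0.0427) in 14, and that of Igfbp1 held in all 24. Of 14 acute-phase genes, 7 fell in WTMM and 8 in WTPP, none rose, and 2 were higher in WTMM than in WTPP, with medians of -0.53, -0.78 and -0.01. Crp fell 1.43-fold in WTPP (0.00338) and was 1.53-fold higher in WTMM than in WTPP (0.00172), and Apcs fell 2.21-fold in WTPP (0.00421), all in all 24 alternatives. Hpx fell in both lineages, by -0.98 in WTMM (0.00486) and -1.06 in WTPP (0.00306) on the log2 scale, also in all 24. WT 116 had the most Hpx, at 240064 against 132697 to 156905 in the other WT libraries. Hp fell by -0.94 in WTMM (0.0196), a call lost without WT 116, WTMM 6 or WTMM 8. Igf1 and Igfals are known to fall in liver with fasting and with inflammation. The part of these states in the values of Igfals and Igf1 was not tested.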

How the data were processed

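RNA-seq was made from liver of 12 female mice with a directional kit. The build GRCm38 and the tools HISAT2, DESeq2 and cutadapt are named, per the submitters' processing notes; the counter is not given in the sources used here. The deposited table holds log2 values: its authors took the log2 of normalized counts plus 0.1, as the values show, since every value is a whole number of reads times a step per library within 0.001. The deposited WT columns, listed under another unit because their headers are bare numbers, hold the same log2 values. Columns were matched to samples by title.

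Normalized counts were recovered, 14473 genes with a mean of at least 10 were kept, and limma 3.58.1 in R 4.3.3 fitted log2(normalized count + 1) with 3 group means and a mean-variance trend; p-values are Benjamini-Hochberg adjusted over those genes, with a threshold of 0.05. The script was tested on simulated data. Library totals of 25070718 to 35843972 reads bound the precision, and no fold printed for a named gene rests on a count near 0. The numbers of list genes called are not limited in this way, since acinar markers such as Ctrb1 were at 0 in most lineage libraries. Members and lists were chosen with earlier results of these data known. All 10 members are named; of each other list, up to 4 genes with the smallest p among those called per contrast were eligible to be named; 1 such gene is not reported here. Gene positions are from GENCODE M21, to which 25016 of the 25069 genes matched, and promoter sequences from RefSeq. Alternatives were other pseudocounts, filters, scalings, variance settings, voom, 2-group fits, each library left out, a block on shared numbers, and, added after seeing the data, the 4 libraries of that block unblocked, and a fit without WTPP 2 and WTPP 3.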

Additional observations from a re-analysis of the deposited data

Results flagged for a closer look

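Libraries far from the others of their group were looked for in the 120 groups of 4 libraries formed by the 10 members and the 30 other genes eligible to be named, not all listed genes, on the log2 scale, by the gap to the nearest library divided by the range. Chance flags about 1 in 20 such groups, and 7 of 120 were found. Among the members, Ghr in WT 120 (17617 against 14496 to 14767 in the other 3) had a gap of 0.905 of the range, and Igf1 in WT 117 (21513 against 29704 to 31507) a gap of 0.846. Without WT 120 the WTPP against WT difference of Ghr was called (adjusted p = 0.0469), and without WT 117 the WTMM against WT difference of Igf1 was 0.34 in place of 0.46 on the log2 scale. Of the other genes, Cux2 was low in WTPP 3 (0.863), Hp low in WTPP 6 (0.851), Hpx high in WTPP 3 (0.844), Ptpn1 high in WTMM 9 (0.893) and Sult2a1 low in WT 118 (0.829416).

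Igfals differed between the lineages in the test of the difference itself, by 0.40 on the log2 scale (WTMM minus WTPP, adjusted p = 0.0401), with all WTMM libraries above all WTPP libraries. The same test, in the fit across all genes, called listed genes as higher in WTMM: Hsd3b5 by 4.07, Cyp7b1 by 1.68, Cux2 by 1.52, Apcs by 0.88, Mup3 by 0.78, Slco1a1 by 0.69, Pck1 by 0.65 and Crp by 0.62 on the log2 scale. It called others as lower in WTMM: Cyp17a1 by -4.35, Sult2a1 by -2.21, Tyk2 by -0.36 and Ptpn6 by -0.34.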

How the results depend on the processing

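The fall of Igfals in WTPP was called under all 24 alternatives run for that contrast. With array weights 1 member, Igf1, was called in WTMM against WT and 2, Igf1 and Igfals, between the lineages. Between the lineages 0 members were called with no filter beyond 1 read in any library, with no trend, and without both WTPP 2 and WTPP 3, where WTMM against WT called 1. With single libraries left out, the member count was 0 to 1 in WTMM against WT, 1 to 2 in WTPP against WT and 0 to 2 between the lineages. The cause was not tested.

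The numbers 6 and 7 occur in WTMM and WTPP. Same-numbered libraries had correlations of -0.15 and -0.07 between their deviations. So few pairs cannot show whether they share more than a number. With a block on the number, 0 members were called (Igfals adjusted p = 0.394), and 0 in the same 4 libraries unblocked (0.252).

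Signs turned only for differences that were never called. Without both WTPP 2 and WTPP 3, WTPP against WT turned to -0.35 for Stat5a, 0.53 for Socs2, 0.54 for Cish and 0.062 for Igf1 (log2), and Stat5a between the lineages to 0.28, and to 0.29 in the 4 libraries with or without the block. Array weights turned Igfbp2 in WTPP to -0.021. With single libraries left out, WTMM against WT ran from -0.079 to 0.021 for Jak2, -0.14 to 0.019 for Stat5a, -0.92 to 0.35 for Cish, -0.12 to 0.026 for Igfals and -0.30 to 0.13 for Igfbp2. WTPP against WT ran from -0.10 to 0.41 for Stat5a, -0.67 to 0.15 for Socs2, -0.50 to 0.24 for Cish, -0.15 to 0.089 for Igf1, -0.039 to 0.39 for Igfbp2 and -0.058 to 0.19 for Igfbp3. WTMM against WTPP ran from -0.48 to 0.033 for Stat5a and -0.74 to 0.53 for Cish. Scaling by quantiles or equal totals turned no member's sign. The fewest reads of any member in a library were 139, for Cish.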
